A study of Mus musculus with 6 samples.

Results

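Maturation promoting factor was described through 10 genes, which code for the B cyclins (Ccnb1, Ccnb2, Ccnb3), their kinase partner (Cdk1), the kinases that inhibit it (Wee1, Wee2, Pkmyt1) and the phosphatases that activate it (Cdc25a, Cdc25b, Cdc25c). They were taken by gene name from a table of 54532 genes, and all 10 were present and were tested. The samples were mouse oocytes in 6 libraries, 3 from AMH-treated and 3 from control C57BL/6J mice, all 6 to 7 weeks old. AMH is anti-Müllerian hormone, which granulosa cells of growing follicles secrete. Treated mice were injected into the abdominal cavity each day with 300 ng of recombinant mouse AMH made in E. coli, starting at 21 days of age. What control mice received, how long injection lasted, the meiotic stage of the oocytes, how many were pooled, whether cumulus cells were removed and whether each library is a separate animal are not stated in the labels. The p-values therefore cover only the spread among the 6 libraries, part or all of which may be technical. The comparison is AMH against control, in a study whose title concerns oocyte quality.

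Maturation promoting factor is the complex of a B cyclin with the kinase Cdk1, and it drives entry into meiotic or mitotic M phase. In a fully grown oocyte arrested in prophase, Wee kinases and Pkmyt1 keep Cdk1 inactive by phosphorylating it, and Cdc25 phosphatases remove those phosphates when meiosis resumes. Much of the mRNA for these proteins is stored in the growing oocyte and translated later. Libraries were made from polyadenylated RNA, so the values are levels of polyadenylated mRNA and not of protein or kinase activity.

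The promoters of 3 members are shown because B cyclin genes and Cdk1 are textbook targets of the CCAAT-binding factor NF-Y, and of complexes that bind TTTGAA in cell-cycle promoters. The window of Ccnb3, also a B cyclin, held neither CCAAT nor TTTGAA and is not printed. Promoter windows from RefSeq (build GRCm38.p6) were searched for 7 of the 10 members. Wee1 and Pkmyt1 had no window there, and Cdc25c was left out of the search. Each line gives the 250 bases before the RefSeq start site on the gene's own strand, with CCAAT (or ATTGG, the same letters on the other strand) and TTTGAA (or TTCAAA on the other strand) in capitals.
Ccnb1 chr13:100786487-100786736, minus strand: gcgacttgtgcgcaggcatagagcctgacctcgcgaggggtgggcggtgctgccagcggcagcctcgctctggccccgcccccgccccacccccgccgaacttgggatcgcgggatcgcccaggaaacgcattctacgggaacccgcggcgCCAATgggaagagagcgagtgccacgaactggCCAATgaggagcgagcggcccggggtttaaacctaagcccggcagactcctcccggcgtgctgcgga
Ccnb2 chr9:70421555-70421804, minus strand: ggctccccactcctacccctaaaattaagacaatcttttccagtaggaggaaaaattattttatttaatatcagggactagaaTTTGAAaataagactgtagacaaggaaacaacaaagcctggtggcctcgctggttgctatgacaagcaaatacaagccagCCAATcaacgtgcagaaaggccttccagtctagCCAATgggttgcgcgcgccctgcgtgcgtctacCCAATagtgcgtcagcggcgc
Cdk1 chr10:69352913-69353162, minus strand: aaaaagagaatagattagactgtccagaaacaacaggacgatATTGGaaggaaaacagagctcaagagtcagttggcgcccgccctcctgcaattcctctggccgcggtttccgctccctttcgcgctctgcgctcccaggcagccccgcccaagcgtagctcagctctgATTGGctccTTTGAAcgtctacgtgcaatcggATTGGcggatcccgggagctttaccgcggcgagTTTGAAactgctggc
Counting back from the start site, CCAAT begins 99 and 67 bases upstream in Ccnb1, 87, 54 and 21 bases upstream in Ccnb2, and 208, 80 and 48 bases upstream in Cdk1. TTTGAA begins 167 bases upstream in Ccnb2 and 71 and 15 bases upstream in Cdk1, and is not in the Ccnb1 window. Of 32851 promoter windows of this length, 33.8% held at least 1 CCAAT, 10.1% at least 2 and 2.79% at least 3, and 16.0% held TTTGAA. Both strands were searched, no CCAAT match overlapped a TTTGAA match in the windows shown, and a match of letters is a description and not a binding site.

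In these windows Cdc25a had 2 CCAAT, Wee2 and Cdc25b had 1 each, and Ccnb3 had 0. The RefSeq start of Wee2 lies inside the span that the count table gives to the gene (chromosome 6, 40439088 to 40466813), and so does its whole window. The windows of Ccnb1 and Cdk1 overlap the counted span of their genes at the end next to the start site, so that the CCAAT 67 bases upstream in Ccnb1 and the TTTGAA 15 bases upstream in Cdk1 lie inside it. Near its 3′ end Wee2 carries the letters of a cytoplasmic polyadenylation element, a sequence bound by CPEB proteins that control the tail and translation of stored oocyte mRNA. The site is shown because Wee2 alone of the 10 had these letters and a polyadenylation hexamer (AATAAA or ATTAAA) within 30 bases. Wee2 was also the most abundant of the inhibitory kinases. Of 2 matches to the element in the last 100 bases, the one farther from the end is printed. In this stretch of 30 bases, which starts 50 bases before the end of the longest coding transcript in GENCODE M21, capitals mark TTTTAAT and the polyadenylation hexamer AATAAA.
Wee2 transcript 3′ end, chromosome 6: cataTTTTAATccagatcattgtaAATAAA
TTTTAT or TTTTAAT was present in the last 100 bases of 2 of the 10 members (Wee2 and Ccnb3), against 16.7% of 21746 genes with a coding transcript. Other forms of the element, bases farther upstream and other transcripts were not searched, so the other members cannot be said to lack it.

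Count totals were 66392859 to 72109080 per library. The lowest chi-square distance between any pair of libraries was that of AMH 3 with control 3, a pair across the groups, so results are also given without those 2 libraries. Whether this pair was exchanged or mixed was not tested, and every fold change takes the labels as given. Oocyte markers had a higher summed CPM than any other marker list in all 6 libraries, and by FPKM its most abundant genes were H1foo, an oocyte linker histone, and the growth factor Gdf9. Summed CPM of 20 oocyte markers was 16279, 15770 and 26428 in AMH 1, 2 and 3, and 32301, 35775 and 27077 in controls 1, 2 and 3. Summed CPM of 18 cumulus and granulosa markers was 6481, 6063 and 4629 in AMH libraries and 1442, 432 and 4800 in controls. By FPKM the most abundant of these were Hsd3b1 and Inha. Of the 18, 15 had a log2 fold change above 0 and 3 below. The 3 below, named after their values were seen, were Cyp19a1 (-0.65), Ptx3 (-0.10) and Kitl (-0.03). Cyp19a1 was lower in every AMH library than in every control. Summed CPM over 7 oviduct epithelium, 6 macrophage and 5 erythroid markers spanned 139 to 716, 48.3 to 75.8 and 22.8 to 357 in AMH libraries, and 21.1 to 169, 4.74 to 20.3 and 1.11 to 5.64 in controls. By FPKM the most abundant genes of these lists were Krt18 and Krt8, Lyz2 and Cd68, and Hba-a1 and Hbb-bs. The oviduct gene Ovgp1, named after its values were seen, had the highest mean CPM of its list, with 379, 164 and 31.8 CPM in AMH libraries and 16.6, 2.53 and 21.7 CPM in controls. Summed CPM of 8 theca and stroma markers (Acta2 and Dcn highest by FPKM, Insl3 at 0) was 6.90 to 35.0 in AMH and 4.41 to 29.8 in control libraries. That of 5 endothelial markers (Pecam1 and Tek highest by FPKM, Emcn at 0) was 105 to 177 in AMH and 183 to 222 in control libraries. The endothelial markers did not move together. Of the 4 tested, 3 had a log2 fold change below 0. Cdh5, named after its values were seen, had 1.48, with every AMH library above every control. The part of other cells in the results below was not tested. A fit with cumulus markers as a covariate is given, but with 6 libraries it cannot separate those cells from the group. That covariate also moved the median log2 fold change of the oocyte markers from -0.84 to -0.39. In bulk libraries, fewer cells of a type and less RNA per cell cannot be told apart.

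Per unit of length, in FPKM (counts scaled to gene length and to 1 effective size per library, given below), the 10 genes differed widely in level. Ccnb1 had a mean of 513.9 FPKM over the 6 libraries and was number 44 of 22046 protein-coding genes. Next came Wee2 with 245.9 FPKM, at number 122, and Ccnb2 with 88.0 FPKM, at number 459. Cdc25a (21.7 FPKM) and Pkmyt1 (18.9 FPKM) followed, and these 2 changed places between libraries. Cdk1 had 11.1 FPKM and Cdc25b 5.74 FPKM, each at the same place in every library. Wee1 (2.36 FPKM), Cdc25c (1.91 FPKM) and Ccnb3 (1.18 FPKM) came last, and their order differed between libraries. The deposited gene lengths exceed the longest coding transcript for some members, with 8023 against 3632 bases for Cdc25a. With the longest coding transcript as the length, which was added once the values were known, the order of mean levels was unchanged for all 10 genes, and Cdc25a lay above Pkmyt1 in all 6 libraries.

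Across AMH and control libraries, 0 of the 10 genes passed edgeR's quasi-likelihood test at a Benjamini-Hochberg adjusted p of 0.05, and neither did any (0%) of the 18868 genes tested. Levels are given as CPM, counts scaled to the size of the library after TMM correction for RNA composition, and positions refer to GRCm38. Ccnb1, Ccnb3, Wee2, Pkmyt1 and Cdc25a had lower CPM in every AMH library than in every control, and 0 of the 10 lay above every control. Of all tested genes 23.3% had every AMH library below every control and 26.9% above, 50.2% in all. At an unadjusted p under 0.05, 5 members were lower and 0 higher, beside 17.3% and 20.2% of all tested genes (37.5% in either direction). Limma-voom with sample quality weights called 8 members, all but Cdk1 and Cdc25b, beside 39.1% of all tested genes called higher and 35.8% called lower. The median log2 fold change was -0.46 over the 10 members and -0.01 over all tested genes.

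Ccnb1 encodes the main B cyclin of oocytes, whose level limits Cdk1 activity. Ccnb1 (chromosome 13, 100778650 to 100786570) had 1447, 1467 and 2374 CPM in AMH libraries 1, 2 and 3, against 2839, 2817 and 2586 CPM in controls 1, 2 and 3. AMH 1 and 2 were far below the controls and AMH 3 just below control 3, so the groups did not overlap. On the log2 scale the fold change was -0.64 ± 0.24 (SE; edgeR, unadjusted p = 0.0335, adjusted p = 0.120). A processed pseudogene, Ccnb1-ps, held 0.712 to 0.794% as many counts as Ccnb1, and reads can be split between such copies.

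Ccnb2 encodes a second B cyclin, which can take over for cyclin B1 in mouse oocyte meiosis. Ccnb2 (chromosome 9, 70407692 to 70421547) had 103, 94.8 and 169 CPM in AMH libraries and 171, 159 and 144 CPM in controls. The AMH 3 value lay among the controls, so the groups overlapped. Its log2 fold change was -0.37 ± 0.25 (SE; edgeR, adjusted p = 0.269), and without AMH 3 it was -0.71 (edgeR adjusted p = 0.0443).

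Ccnb3, a cyclin that mouse oocytes need to pass from metaphase to anaphase of the first division, was the least abundant of the 10 per unit length. Ccnb3 (chromosome X, 6979652 to 7041619) had a CPM of 3.06, 4.36 and 3.75 in AMH libraries and 6.78, 9.40 and 6.26 in controls. All 3 AMH libraries were below all 3 controls, and here AMH 3 did not lie near control 3. The log2 fold change of -1.01 ± 0.29 (SE) had an edgeR adjusted p of 0.116, on 246 to 603 counts per library. DESeq2 called Ccnb3 alone of the 10 (adjusted p = 0.0181), beside 6.91% of all tested genes called lower and 16.0% called higher by DESeq2.

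Cdk1 (chromosome 10, 69335146 to 69352938), the catalytic subunit, had 48.2, 47.2 and 68.6 CPM in AMH libraries, against 52.3, 55.9 and 70.3 CPM in controls. The groups overlapped, with both libraries numbered 3 above the other 4. Its log2 fold change was -0.12 ± 0.22 (SE; edgeR, adjusted p = 0.668). Its sign changed to 0.13 with library size only and to 0.57 with oocyte-marker scaling, so no direction is given for Cdk1.

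**Figure D1:**
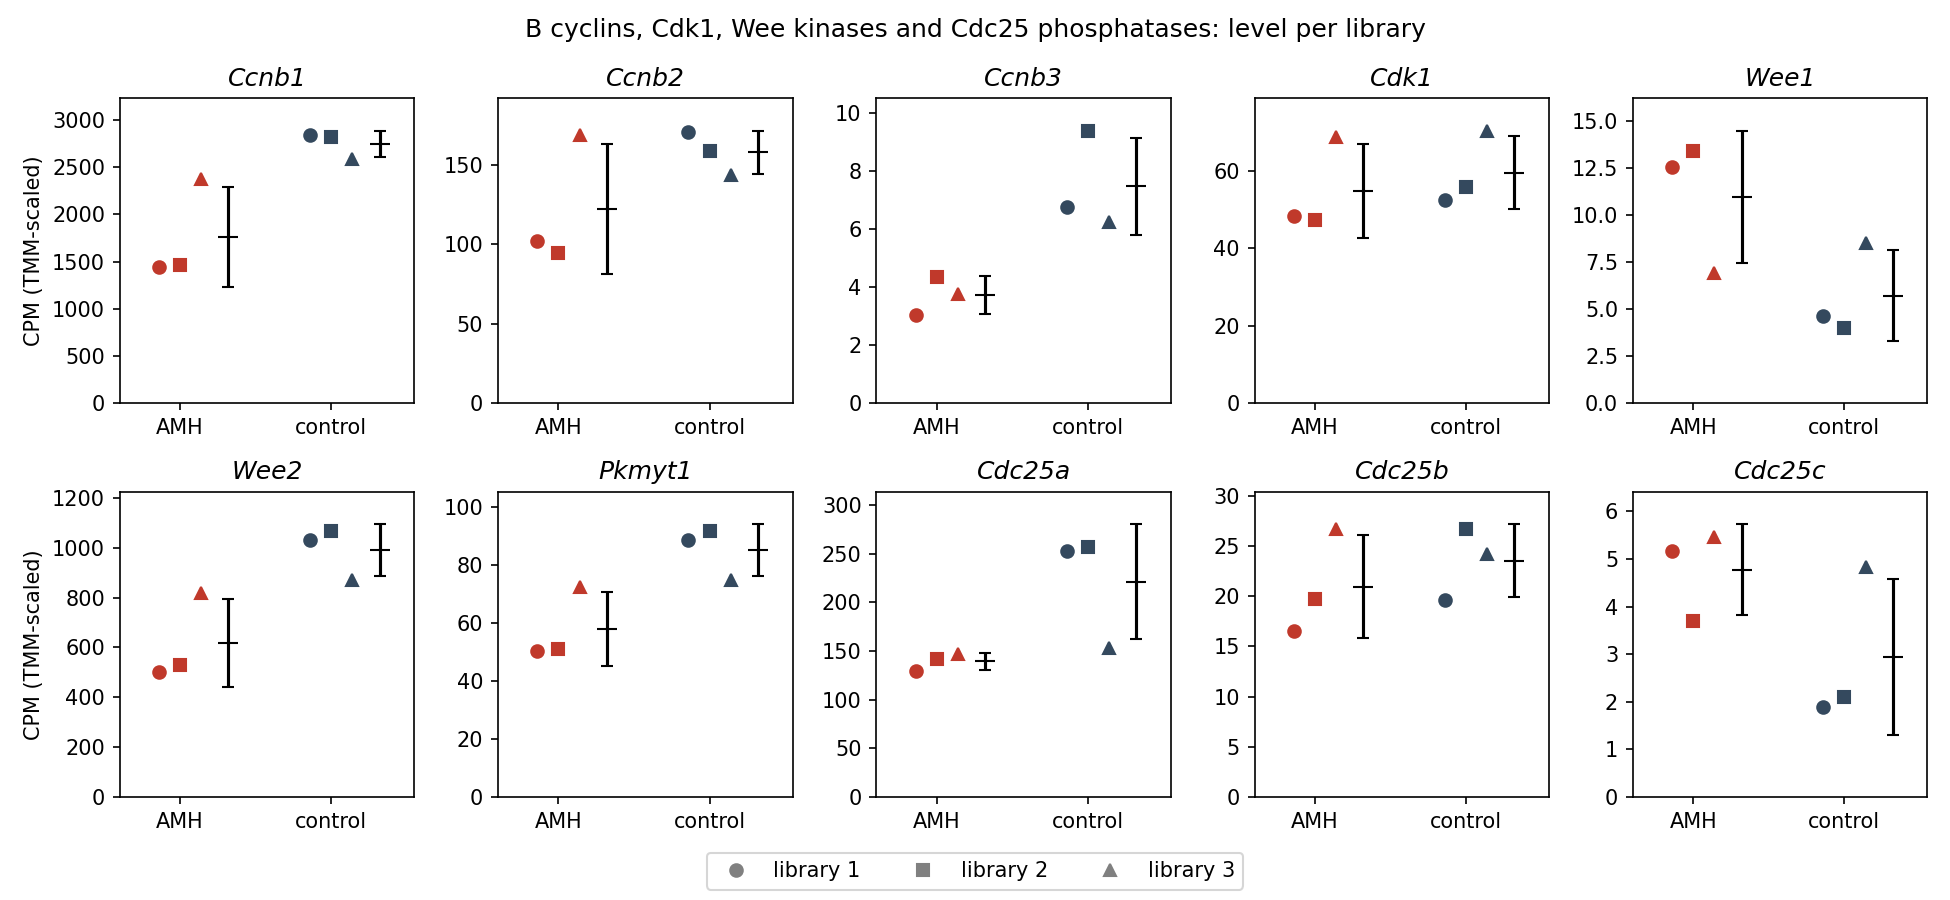
CPM on the TMM-scaled library size (y axis, from 0) of each of the 10 genes in AMH and control libraries, with marker shapes for libraries 1, 2 and 3 and the mean ± SD beside each group (n = 3 each). Ccnb1, Ccnb3, Wee2, Pkmyt1 and Cdc25a have all 3 AMH points below all 3 control points, and AMH 3 lies nearest the controls for Ccnb1, Wee2, Pkmyt1 and Cdc25a.

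Among the inhibitory kinases, Wee2 is the form typical of oocytes, where it helps to keep prophase arrest in mice and is also needed for exit from metaphase II. Wee2 (chromosome 6) had 502, 529 and 819 CPM in AMH libraries, against 1032, 1066 and 871 CPM in controls. AMH 3 was close to control 3 but below it, and AMH 1 and 2 were lower still. The log2 fold change was -0.68 ± 0.24 (SE; edgeR, unadjusted p = 0.0235, adjusted p = 0.117).

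Pkmyt1 (chromosome 17, 23726336 to 23736735), a membrane-bound kinase that phosphorylates Cdk1 on threonine and tyrosine, had 50.4, 51.1 and 72.6 CPM in AMH libraries and 88.7, 91.8 and 74.9 CPM in controls. As for Wee2, AMH 3 and control 3 lay close together, with the other AMH libraries below them and the other controls above. Its log2 fold change was -0.55 ± 0.20 (SE; edgeR, unadjusted p = 0.0301, adjusted p = 0.118). Pkmyt1 overlaps Paqr4, on the opposite strand, by 550 bases, and whether the counting used strand is not given in the sources used here.

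Wee1, the kinase of dividing somatic cells, had higher mean CPM in AMH than in control libraries. Wee1 (chromosome 7, 110122046 to 110143286) had 12.5, 13.4 and 6.91 CPM in AMH libraries, against 4.65, 3.99 and 8.49 CPM in controls. AMH 3 lay below control 3, so the groups overlapped. Wee1 had a log2 fold change of 0.94 ± 0.41 (SE; edgeR, unadjusted p = 0.0545, adjusted p = 0.138) on 256 to 1024 counts per library. Summed cumulus and granulosa marker CPM was likewise highest in AMH 1 and 2 and higher in control 3 than in AMH 3. With those markers as a covariate the log2 fold change of Wee1 was 0.31 (edgeR adjusted p = 0.705, with an adjusted p of 0.000624 to 0.705 over the alternatives).

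Cdc25a, the most abundant Cdc25 phosphatase here per unit length, is known for its part in S phase and M phase entry. Cdc25a (chromosome 9, 109875579 to 109893895) had 130, 142 and 147 CPM in AMH libraries, against 253, 257 and 153 CPM in controls. Control 3 stood apart from the other controls and lay just above AMH 3. The log2 fold change was -0.66 ± 0.23 (SE; edgeR, unadjusted p = 0.0227, adjusted p = 0.117). Without control 3 it was -0.88 (edgeR adjusted p = 0.0186), and with the cumulus marker covariate it was -0.21 (edgeR adjusted p = 0.734).

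Cdc25b (chromosome 2, 131186949 to 131198497), the phosphatase that mouse oocytes need to resume meiosis, had 16.5, 19.7 and 26.6 CPM in AMH libraries and 19.6, 26.7 and 24.2 CPM in controls. The groups overlapped, and the log2 fold change was -0.17 ± 0.25 (SE; edgeR, adjusted p = 0.609), with the opposite sign under library size only (0.09) and oocyte-marker scaling (0.54). Cdc25b overlaps Spef1, on the opposite strand, by 334 bases, and Spef1 had 74 to 208 counts in AMH libraries and 5 to 28 in controls, while Cdc25b had 1265 to 1746 counts in all.

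Cdc25c (chromosome 18, 34732997 to 34751533), a mitotic phosphatase without which mice remain fertile, had 5.18, 3.69 and 5.46 CPM in AMH libraries, against 1.89, 2.10 and 4.82 CPM in controls. Control 3 lay within the AMH range and the other controls below it. The log2 fold change was 0.70 ± 0.44 (SE; edgeR, adjusted p = 0.241). It had the fewest counts of the 10, with 122 in control 1 (exact 95% Poisson interval 101 to 146, counting error only). Without control 3 its log2 fold change was 1.25 (edgeR adjusted p = 0.0288), and with the cumulus marker covariate it was 0.15.

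The libraries numbered 3 decided most calls. Without control 3 and AMH 3, edgeR called 8 of the 10 members, all but Cdk1 and Cdc25b, while it called 29.4% of all tested genes higher and 21.6% lower. Ccnb1 then had a log2 fold change of -0.94, Cdc25a -0.89 and Wee1 1.61 (edgeR adjusted p = 0.0147, 0.0147 and 0.0150). That pair was left out because its 2 libraries were the closest across the groups. Leaving out such a pair widens the gap between the groups, so these p-values are descriptive only. Leaving out AMH 3 alone gave 4 members (Ccnb1, Ccnb2, Wee2 and Pkmyt1), beside 6.73% of genes called lower and 1.45% called higher. Leaving out control 3 alone gave 4 others (Ccnb3, Wee1, Cdc25a and Cdc25c), beside 11.2% lower and 26.8% higher.

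The sign of the log2 fold change of most members differed between scalings. Over all tested genes the median was 0.26 when only library size was used, -0.23 after upper-quartile scaling, 0.75 when counts were scaled to the oocyte markers and -0.01 with TMM. The medians of the 10 members were -0.21, -0.69, 0.24 and -0.46 under the same 4 scalings, each below that of all tested genes. Those of the oocyte markers were lower still, at -0.57, -1.09, -0.08 and -0.84. A scaling moves all genes of a library together, so the 4 comparisons are not separate tests. Wee1 and Cdc25c had positive and Ccnb3 negative values under all 4 scalings. Of the other 7, all changed sign with oocyte-marker scaling. Ccnb1 (0.05 ± 0.09 SE) and Wee2 (0.02 ± 0.09 SE) then lay so near 0 that their sign gives no direction.

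**Figure D2:**
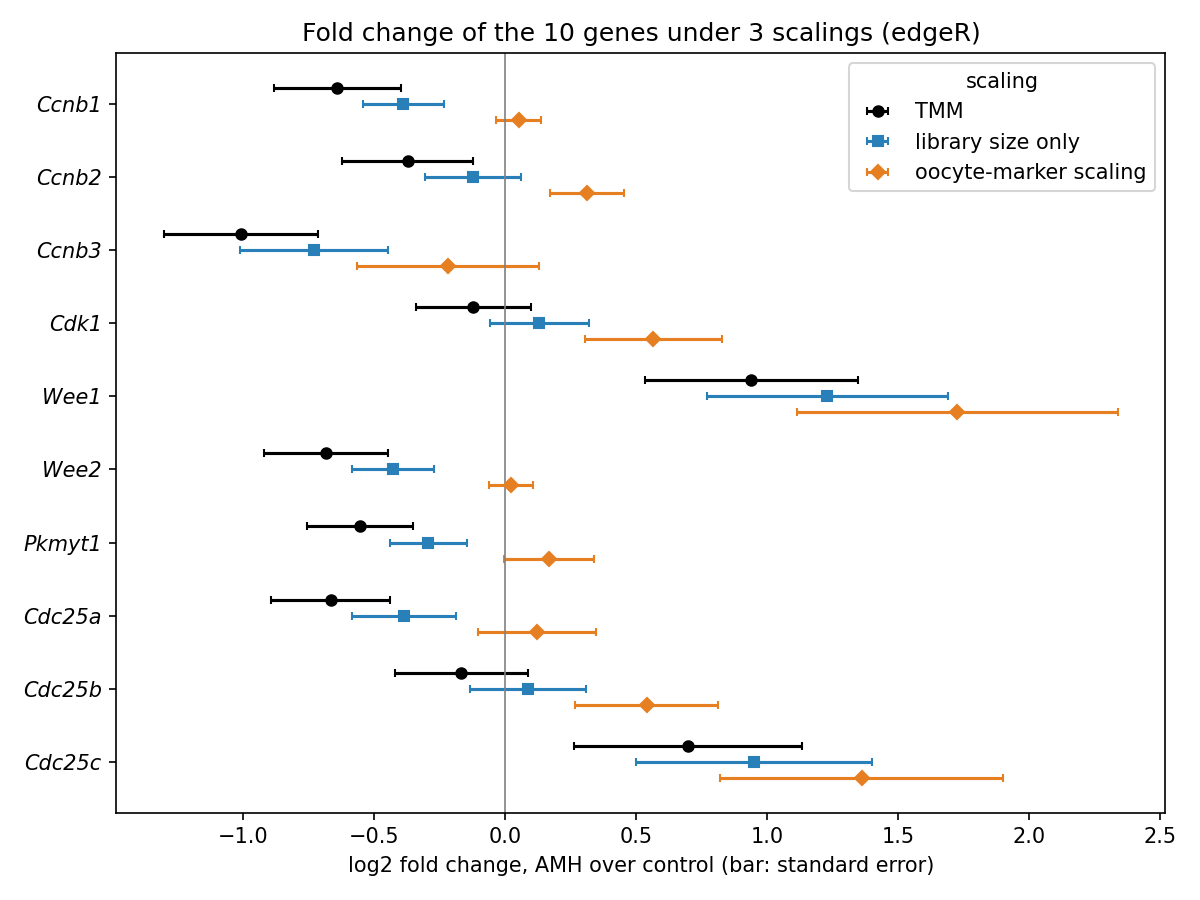
Log2 fold change of AMH over control (x axis) for the 10 genes (y axis) with TMM, library size only and oocyte-marker scaling, from edgeR, with standard errors as bars. Oocyte-marker scaling moves every gene to the right, and Ccnb1 and Wee2 then lie at 0.05 and 0.02.

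None of the 10 members is among the oocyte markers. Set against the sum of these markers within the same library, Ccnb1 and Wee2 had means that were close in AMH and control libraries. That sum leans on Gdf9 and H1foo, with 5542 and 5092 of 16279 CPM in AMH 1. Single oocyte markers had log2 fold changes, with TMM, of -0.46 (Oosp1) to -1.35 (Figla), so the result depends on the markers used. Per 1000 oocyte marker counts, Ccnb1 had 88.9, 93.0 and 89.8 counts in AMH libraries, against 87.9, 78.8 and 95.5 in controls. Wee2 had 30.9, 33.6 and 31.0 in AMH libraries and 32.0, 29.8 and 32.2 in controls. For both genes the groups overlapped, with edgeR adjusted p of 0.726 for Ccnb1 and 0.893 for Wee2 under this scaling.

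Of the other members, all but Ccnb3 had higher means per oocyte marker in AMH libraries than in controls. This scaling put the median of all tested genes at 0.75 on the log2 scale. With this scaling the log2 fold change was 0.57 for Cdk1, 0.31 for Ccnb2 and 0.54 for Cdc25b, all below that median. For Cdc25c it was 1.36, above the median. Cdk1, Ccnb2, Cdc25b and Cdc25c, named after their values were seen, had every AMH library above every control. How many of all tested genes did so under this scaling was not counted. The groups overlapped for Wee1 (log2 fold change 1.72), Pkmyt1 (0.17), Cdc25a (0.12) and Ccnb3 (-0.22). Cdk1 had 2.96, 2.99 and 2.60 counts per 1000 oocyte marker counts in AMH libraries, against 1.62, 1.56 and 2.60 in controls. AMH 3 and control 3 were nearly equal, and the other controls were lower. Ccnb2 had 6.30, 6.01 and 6.41 in AMH libraries and 5.30, 4.45 and 5.32 in controls. Cdc25b had 1.02, 1.25 and 1.01 in AMH libraries, against 0.607, 0.747 and 0.895 in controls. Cdc25c had 0.318, 0.234 and 0.207 in AMH libraries, against 0.0586, 0.0588 and 0.178 in controls. None of these passed the test (edgeR adjusted p = 0.163, 0.158, 0.192 and 0.126 for Cdk1, Ccnb2, Cdc25b and Cdc25c), nor did any other member or gene under this scaling.

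**Figure D3:**
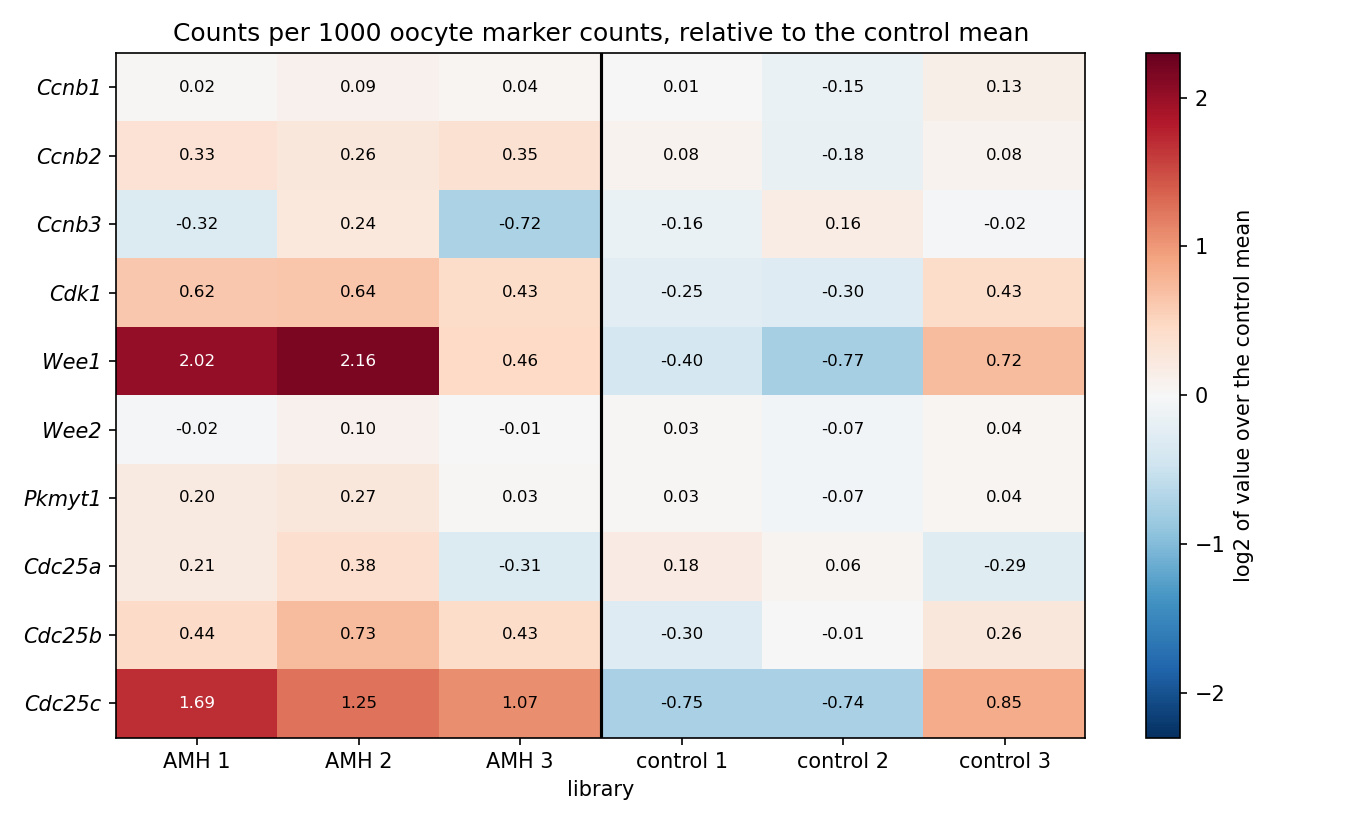
Colour and number give the log2 of each gene's counts per 1000 oocyte marker counts over the control mean, for the 10 genes (rows) in AMH 1 to 3 and control 1 to 3 (columns). Ccnb1 and Wee2 stay near 0 in all 6 libraries, while Wee1 reaches 2.02 and 2.16 in AMH 1 and 2, against 0.46 in AMH 3.

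Ratios within a library do not depend on its scaling. The B cyclins together had 42.0, 42.9 and 48.5 FPKM per FPKM of Cdk1 in AMH libraries, against 74.2, 68.4 and 49.8 in controls. All AMH libraries were below all controls, though AMH 3 and control 3 differed little. On the log2 scale, Cdk1 over B cyclins was -5.47 ± 0.11 in AMH and -5.98 ± 0.30 in control libraries (SD, n = 3 each), a difference of 0.51 (two-sided exact permutation p = 0.1, adjusted 0.167 over 5 ratios). A design of 3 against 3 libraries cannot give a p below 0.1.

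Ccnb1 made up 83.5, 84.7 and 83.5% of B cyclin FPKM in AMH libraries, against 85.6, 86.3 and 86.5% in controls. Here AMH 3 lay with the other AMH libraries and control 3 with the other controls. The means were 83.9 ± 0.689% and 86.1 ± 0.489% in AMH and control libraries (SD, n = 3 each). Their difference of -2.24 percentage points (exact permutation test, two-sided p = 0.1, adjusted 0.167) was -1.83 without both libraries numbered 3. Ccnb2 took up most of the rest, with 15.1 to 16.4% in AMH and 13.3 to 14.2% in control libraries. In FPKM, Ccnb1 stood 5.09 to 5.62 times above Ccnb2 in AMH and 6.02 to 6.52 times in control libraries.

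Wee2 made up 90.1, 90.4 and 92.2% of the FPKM of the 3 inhibitory kinases in AMH libraries, against 92.8, 92.8 and 92.3% in controls. The groups did not overlap, by a narrow margin between AMH 3 and control 3 (difference of means -1.70 percentage points, two-sided exact permutation p = 0.1, adjusted 0.167). Wee1 held 2.07, 2.10 and 0.715% in AMH libraries and 0.384, 0.319 and 0.827% in controls.

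Of Cdc25 FPKM, Cdc25b made up 19.1, 21.2 and 25.3% in AMH libraries, against 13.9, 17.8 and 23.2% in controls. The groups overlapped (difference of means 3.57 percentage points, two-sided exact permutation p = 0.4, adjusted 0.4). That difference was 1.40 without control 1, 1.87 without AMH 3 and 6.00 without control 3. Cdc25a had the largest share of the 3 in every library, with 64.8 to 71.1% in AMH and 68.0 to 83.5% in control libraries. The log2 ratio of inhibitory kinases to Cdc25 phosphatases in FPKM was 2.93, 2.91 and 3.32 in AMH libraries, against 3.23, 3.18 and 3.42 in controls. That difference of means was -0.22 (two-sided exact permutation p = 0.3, adjusted 0.375), or -0.36 without AMH 3, and the groups overlapped.

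**Figure D4:**
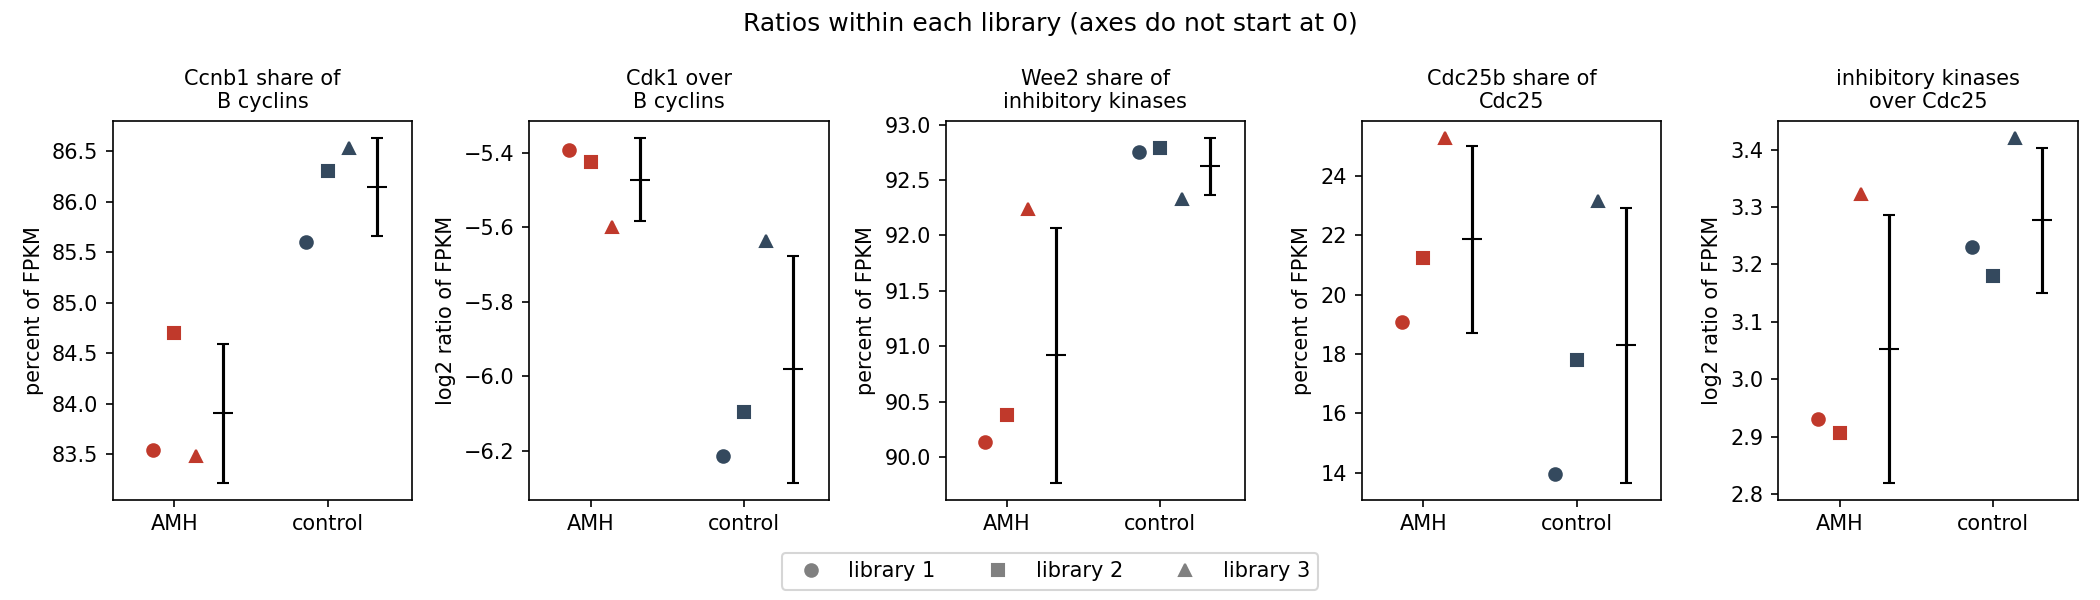
Ratios of FPKM within each library, as percent or log2 (y axes, which do not start at 0), for AMH and control libraries, with the mean ± SD beside each group (n = 3 each). The Ccnb1 share of B cyclins is 83.5 to 84.7% in AMH and 85.6 to 86.5% in control libraries.

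Other genes that act on maturation promoting factor were followed in a list of 26, of which 25 were tested, and 0 passed edgeR's test over all genes. In that list 13 genes had all AMH values below all control values and 3 (Ywhah, Ensa and Ccnh, named after their values were seen) had them above, beside 23.3% and 26.9% of all tested genes. With TMM the median log2 fold change was -0.55, against -0.01 over all tested genes. With oocyte-marker scaling it was 0.17, against 0.75 over all tested genes. The 8 of highest mean FPKM were Mos, Cks2, Cdc20, Cks1b, Plk1, Ccna2, Fbxo43 and Chek1. Mos, the kinase that starts the MAP kinase cascade of oocytes, had 628, 536 and 1020 CPM in AMH libraries, against 1172, 1324 and 1059 CPM in controls (log2 fold change -0.70 ± 0.27 SE, edgeR adjusted p = 0.122). Mos also counts among the oocyte markers. Plk1, a kinase that activates Cdc25 and inhibits Wee1, had 227, 229 and 369 CPM in AMH libraries and 490, 510 and 388 CPM in controls (log2 fold change -0.75 ± 0.25 SE, edgeR adjusted p = 0.116). In both genes AMH 3 lay just below control 3.

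Cdc20, which activates the anaphase-promoting complex that destroys cyclin B, had 293, 287 and 465 CPM in AMH libraries, against 536, 550 and 494 CPM in controls. Fbxo43, an inhibitor of that complex, had 271, 281 and 461 CPM in AMH libraries and 554, 534 and 496 CPM in controls. Ccna2 (cyclin A2) and Chek1, a checkpoint kinase that acts on Cdc25, had log2 fold changes of -0.59 and -0.70. All 4 lay below every control in every AMH library, with edgeR adjusted p of 0.118 to 0.125. Cks2, a small Cdk-binding subunit, had 165, 154 and 284 CPM in AMH libraries, against 280, 247 and 227 CPM in controls, so AMH 3 was the highest library of all 6. Its relative Cks1b had 177, 185 and 264 CPM in AMH libraries, against 324, 322 and 251 CPM in controls. For both Cks genes the groups overlapped, as they did for Ccnb2.

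Summed CPM of 12 proliferation genes, of which Mcm2 and Pcna were the most abundant by FPKM, was 899, 1030 and 1367 in AMH libraries, against 1623, 1702 and 1441 in controls, lower in every AMH library than in every control. Their median log2 fold change over 12 tested genes was 0.30 with oocyte-marker scaling, against 0.75 over all tested genes. With TMM it was -0.48, with 10 genes below 0 and 2 above. The 2 above, named after their values were seen, were Ccnd2 (cyclin D2) and Tyms (thymidylate synthase). Ccnd2 had 34.5, 48.7 and 37.1 CPM in AMH libraries, against 7.48, 3.97 and 59.5 CPM in controls, so that control 3 was highest and the other controls lowest. The part of dividing cells in the Wee1 values was not tested.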

How the data were processed

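Polyadenylated RNA of mouse oocytes was sequenced in 3 AMH and 3 control libraries, per the labels' protocols. The deposited values are gene counts, in whole numbers, and FPKM. Per the submitters' processing notes, tools included DESeq2 1.20.0, HISAT2 2.0.5 and featureCounts 1.5.0-p3, with mm10 and GRCm38 as builds. What each did, and whether counting used strand, is not given in the sources used here. In genes with counts, deposited FPKM values lay within 0.1% of the count over the deposited gene length and over 1 effective size per library, which was 1.05 to 1.18 of the count total in AMH libraries and 0.924 to 0.997 of it in controls.

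Counts were tested with edgeR 4.0.16 (R 4.3.3) by the quasi-likelihood test, with TMM scaling, the default filterByExpr filter, group as the only term and Benjamini-Hochberg adjustment over 18868 genes. CPM uses the TMM-scaled library size, and standard errors come from the F statistic. Limma 3.58.1 tested log2(FPKM + 1), leaving out genes with fewer than 3 libraries over 1 FPKM. Ratios were tested by two-sided exact permutation. Alternatives were DESeq2 1.42.0, limma-voom, other scalings, filters, a covariate, a replicate block and left-out libraries. The tests were run on simulated counts with known changes first.

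Members and gene lists were chosen with earlier results of these data known. The text names all 10 members, the 8 other pathway genes of highest mean FPKM, and the 2 most abundant genes of each marker list. No pair of libraries agreed within sampling noise (lowest chi-square per degree of freedom 55.9), so each was counted once.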

Additional observations from a re-analysis of the deposited data

How the results depend on the processing

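Against 0 genes and 0 members called by edgeR, DESeq2 called 4324 genes and 1 member, limma-voom with sample quality weights 14130 and 8, edgeR without control 3 and AMH 3 together 9885 and 8, and edgeR with 1 library left out 0 to 7513 genes and 0 to 4 members. Limma on FPKM called 0 genes, and 0 to 6891 with 1 library left out (4411 without AMH 3, 6891 without control 3). Other edgeR settings and limma-voom called 0. With oocyte-marker scaling 7 members changed sign: log2 fold changes were 0.052 for Ccnb1, 0.31 for Ccnb2, 0.57 for Cdk1, 0.0229 for Wee2, 0.17 for Pkmyt1, 0.12 for Cdc25a and 0.54 for Cdc25b. Cdk1 and Cdc25b also did so with library size only (0.13 and 0.0872), Cdk1 without control 3 (0.0086 with edgeR; on log2 FPKM 0.0054, in a range of -0.2408 to 0.0054 over left-out libraries) and Cdc25b without control 2 and AMH 1 together (0.0758), which was chosen after seeing the data. The cause of these changes was not tested. The 5 ratios kept their sign under every alternative run, raw counts and other lengths included, though raw counts moved the Ccnb1 share of B cyclins to -0.961 percentage points and kinases over Cdc25 to -0.12, and coding lengths moved the last to -0.15. Same-numbered libraries did not deviate together (correlations of 0.02, -0.15 and -0.35), so the numbers were not taken as pairs. With the replicate block edgeR called 0 genes, and Ccnb1 had -0.68 (adjusted p = 0.204). Cdc25c was not tested with at least 5 CPM in 3 libraries. For Ccnb3, Wee1 and Cdc25c, with 122 to 1024 counts, depth limits precision most.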
